A study of Mus musculus with 80 samples.

Results

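Zinc finger genes named Zfp followed by a number, outside the X and Y chromosomes, were examined in chromatin-associated RNA (ChrRNA) of mouse embryonic stem cells (mESCs) across 80 libraries. The members were the autosomal genes with such a symbol and a mean of at least 5 CPM (read counts scaled to library size) over the 80 libraries, leaving out Zfp42, Zfp352 and Zfp809. This gave 268 members of 22556 genes. Of the 352 genes with such a symbol, 8 are on the X or Y chromosome and 3 were left out by name. Another 73 fell under the mean of 5 CPM, of which 3 had no reads in any library. The members nearest to this level were Zfp954 with a mean of 5.15 CPM and Zfp963 with 5.22 CPM. The nearest genes outside were Zfp651 with 4.88 CPM and Zfp786 with 4.68 CPM. All 268 members passed the filter of each fit, and 266 matched a RefSeq symbol.

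The cells derive from a Mus castaneus x 129S cross and were grown on feeder cells. In each line 1 X chromosome carries a doxycycline (Dox) inducible promoter at Xist, on the Cast allele in the METTL3, ZFC3H1 and transgene lines and on the 129S allele, with Bgl stem loops in Xist, in the YTHDC1 and ZCCHC8 lines. The endogenous target protein was fused to FKBP, and its degradation is triggered by the small molecule dTAG. Each line was sequenced untreated, with dTAG for 26 h, with Dox for 24 h, and with dTAG from 2 h before Dox. The labels of the libraries with dTAG but not Dox disagree on its time (26 h or 2 h), and 26 h, as titled, was used. METTL3, the catalytic subunit of the writer of N6-methyladenosine (m6A), had 4 clones, G4 and H1 with the tag at the N-terminus and C3 and H5 with the tag at the C-terminus. YTHDC1, the nuclear m6A reader, had clones Y9F and Y12H, each sequenced in 2 experiments. ZCCHC8, part of NEXT (the nuclear exosome targeting complex), had clones Z4F and Z12H. ZFC3H1, a subunit of the PAXT connection, another adaptor of the nuclear exosome, had clones 8H and 11A. Clone H5 was the parent of the transgene lines, in which the Rosa26 locus drives GFP-METTL3, either wild type (WT) or with the D395A change in the catalytic site. Each transgene line was 1 clone in 2 experiments: WT_P2B3 and D395A_1F with both X chromosomes (XX), and WT_1A and D395A_9F labelled XiO, in which the X with inducible Xist is the only one detected. Their p-values therefore measure the spread between libraries of a single clone.

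C2H2 zinc finger proteins bind DNA through rows of fingers, each a short fold in which cysteines and histidines hold a zinc ion. Many also carry a KRAB box, which recruits the co-repressor TRIM28 (KAP1), the H3K9 methyltransferase SETDB1 and HP1 proteins to silence retroelements and imprinted regions. KRAB zinc finger genes arose by repeated duplication and lie in clusters, and m6A, its reader YTHDC1 and the exosome adaptors act on RNA that is still on chromatin.

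Stretches of finger repeat from 1 cluster are printed here as examples. On chromosome 13, 17 members lie between positions 67038593 and 67827000 of GRCm38, with neighbours under 500 kb apart, and 16 of them encode a KRAB pattern. The stretches below run from 1 linker between fingers to the next in 5 of these genes, chosen because their ChrRNA moved in different directions when METTL3, YTHDC1 or ZCCHC8 was lost. Each is 105 bases of exon 4 of 4, 5′ to 3′ on the coding strand, with the codons of both linkers in capitals. They lie at chr13:67542060-67542164 (minus strand, Zfp748), chr13:67041967-67042071 (minus strand, Zfp712), chr13:67138936-67139040 (plus strand, Zfp759), chr13:67671178-67671282 (minus strand, Zfp738) and chr13:67257711-67257815 (minus strand, Zfp458).
Zfp748: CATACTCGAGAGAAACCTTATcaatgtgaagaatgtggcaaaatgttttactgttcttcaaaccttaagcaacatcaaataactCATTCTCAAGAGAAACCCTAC
Zfp712: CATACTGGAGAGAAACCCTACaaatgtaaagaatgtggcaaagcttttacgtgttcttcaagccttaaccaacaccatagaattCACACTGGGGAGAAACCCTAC
Zfp759: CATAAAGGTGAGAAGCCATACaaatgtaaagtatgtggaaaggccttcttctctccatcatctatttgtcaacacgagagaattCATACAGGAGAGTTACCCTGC
Zfp738: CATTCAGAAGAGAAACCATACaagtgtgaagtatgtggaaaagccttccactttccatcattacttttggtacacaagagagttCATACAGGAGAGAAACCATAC
Zfp458: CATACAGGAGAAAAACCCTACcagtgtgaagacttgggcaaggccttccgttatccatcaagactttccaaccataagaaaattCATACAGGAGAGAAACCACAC
Between these stretches the identity ran from 62.9% to 79.0%, and it was highest between Zfp748 and Zfp712. Each stretch was the first in its protein between linkers found by a pattern, so the linkers are alike by choice. The stretches begin at residues 326, 131, 184, 197 and 187, in the order printed, and were not aligned as matching fingers. No gene outside the run was compared. The stretch of Zfp458 did not match the finger pattern used here, which requires both cysteines, and the others did. The coding sequences held 17, 16, 12, 18 and 15 such linkers, in the order printed.

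The authors kept unique alignments, so reads that fit several copies were lost. Of the 266 members with a GENCODE transcript, 113 shared none of their 50-base words with another gene, 40 shared over 10% of them and 21 over 25%. Zfp708 shared 100% of its words with the predicted gene Gm28557, Zfp58 50.2%, Zfp932 45.2%, Zfp955b 32.2%, Zfp937 31.3% and Zfp963 20.6%. Levels of these members are uncertain, since reads of such stretches were lost or assigned by few differences. Introns were counted with exons and were not compared.

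The libraries held between 8.58 and 34.4 M reads (megareads) by the recovered counts, and their median was 22.5 M. The stem cell marker list held 7 of 8 genes above 1 CPM in every library, with Sox2 listed at 0 in all of them, and its summed level was 764 to 2053 CPM. The feeder list of 8 genes summed to 0.924 to 14.5 CPM. The WT XiO libraries stood apart, with feeder markers at 9.28 to 14.5 CPM and a list of 6 early differentiation genes at 109.0 to 176 CPM, against 7.80 to 82.1 CPM in all other libraries. Their stem cell markers summed to 764 to 1016 CPM. In bulk RNA, fewer cells of a type and less RNA per cell cannot be told apart. A list of 6 genes of the two-cell state summed to 6.87 to 16.6 CPM in ZCCHC8 libraries without dTAG and to 31.6 to 66.4 CPM with it. Because dTAG acts on the protein, the RNA of the target gene is no check of these labels.

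Members took 1.66% to 1.97% of the reads as group means. Per kb of gene span their median level was 1.53 CPM, against 1.41 CPM per kb over all expressed genes. The highest levels per kb were those of Zfp207 (26.8 CPM per kb), which takes part in spindle assembly and splicing, Zfp57 (23.9 CPM per kb), which protects imprints, and Zfp281 (19.5 CPM per kb), a regulator of pluripotency. Their group means over the 36 groups ran from 409 to 894 CPM for Zfp207, from 93.2 to 411 CPM for Zfp57 and from 68.9 to 149.7 CPM for Zfp281.

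By sequence, 140 members encoded a KRAB pattern in their first 200 residues, with a median of 12 fingers and a median level of 20.7 CPM. Another 109 had C2H2 fingers without that pattern, with a median of 8 fingers and 34.8 CPM. The remaining 15 had no C2H2 finger pattern, and 4 (Zfp191, Zfp783, Zfp607 and Zfp939) had no matching protein in the annotation used. The class is that of the pattern, since Zfp445, known as a KRAB protein, falls outside it. Chromosome 7 held 62 members, chromosome 17 held 40 and chromosome 13 held 29. Against 10004 expressed genes, members had a median of 5 exons rather than 10, a last exon of 2569 rather than 1355 nt, a span of 16226 rather than 30029 bp, and 0.770 rather than 1.03 GGACT sites per kb of transcript. GGACT is a frequent form of the m6A consensus.

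Promoters of 222 members were present among 27025 RefSeq promoters on GRCm38 (250 bases before to 50 after the start). Their median was 14.5 CG pairs, against 7.0 over all promoters. The ETS core CCGGAAG was in 20.7% of them against 9.12% of all promoters, searched on both strands. The YY1 core AAGATGGC was in 6.76% against 2.88%, and CCAAT in 48.6% against 37.9%. The TATA box letters TATAAA were in 6.31% against 14.2%. A match describes these letters only. The 27025 promoters were not limited to expressed genes, whereas members were chosen at a mean of 5 CPM or more. A comparison with promoters of expressed genes alone was not made.

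Changes with dTAG are differences of log2(CPM + 1), the mean of dTAG with Dox against Dox and dTAG against untreated, tested with limma with the clone as a block in the degron lines. They are given ± SE with a Benjamini-Hochberg adjusted p over all genes of the table, and a gene is called at an adjusted p under 0.05. Shares of all genes cover those at a mean of 1 CPM or more in the table, whereas members had at least 5 CPM. These shares are those of limma on CPM, and none are given for median-ratio scaling or TMM. Counts of members on those scales were therefore not compared with all genes. Values per library follow the clones in the order above, or experiments 1 and 2 in the transgene lines.

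Loss of METTL3 was accompanied by higher ChrRNA of many zinc finger genes, and the median of all genes tested was also above 0 on this scale. Of the 268 members, 133 (49.6%) were called higher and 10 (3.73%) lower, against 35.1% and 8.69% of the 13367 genes tested. The median change was 0.28 for members and 0.22 for all genes, but median-ratio scaling, which moves the median of all genes to -0.01, gave 43 members higher and 36 lower. On CPM and in edgeR with TMM (54 higher, 25 lower) the larger number was also higher. Genes are therefore given with their change relative to the median of all genes. Where the change on CPM stands alone, the relative change is lower by 0.22 in METTL3, by 0.09 in D395A XX and by 0.12 in D395A XiO. In METTL3 at a mean of 5 to 20 CPM, 55.6% of members were higher and 1.85% lower, against 45.5% and 4.11% of all genes. At 20 CPM or more these shares were 45.6% and 5%, against 25.2% and 13.3%. Median-ratio scaling gave 17 members higher and 28 lower at 20 CPM or more.

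Zfp629, which encodes 19 fingers and no KRAB pattern (chr7:127607034-127614433, minus strand), had the largest change with 1.77, 1.87, 2.34 and 3.64 CPM untreated and 5.28, 5.28, 1.55 and 2.61 CPM with Dox, against 6.97, 8.83, 6.07 and 11.2 CPM with dTAG and 7.03, 8.82, 9.17 and 6.91 CPM with dTAG and Dox. Every dTAG library lay above every library without dTAG, and the values without dTAG spread more with Dox than untreated. The change was 1.24 ± 0.20 (SE, limma adjusted p = 0.000581), which was 1.01 relative to the median of all genes. Zfp72 (chr13:74371425-74376566, minus strand) had 7.34, 7.87, 5.90 and 7.03 CPM untreated and 9.38, 7.22, 7.46 and 8.35 CPM with Dox, against 19.1, 20.3, 19.8 and 23.8 CPM with dTAG and 17.6, 15.8, 10.7 and 19.4 CPM with dTAG and Dox. All 8 dTAG libraries lay above all 8 others, and clone C3 with dTAG and Dox was the lowest of them. The change was 1.15 ± 0.10 (SE, limma adjusted p = 2.22e-05), which was 0.93 relative to the median of all genes. Zfp597 changed by 1.03 ± 0.10 (SE, limma adjusted p = 3.72e-05), which was 0.80 relative to the median of all genes, and its groups did not overlap. Zfp334, a KRAB member with a mean of 6.11 CPM, changed by 1.01 ± 0.10 (SE, limma adjusted p = 3.82e-05), which was 0.79 relative to the median of all genes, again without overlap.

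Fewer members fell. Zfp367, which encodes 1 match to the finger pattern, had 152, 186, 161 and 176 CPM untreated and 109, 103, 159 and 165 CPM with Dox, against 97.4, 89.1, 139.9 and 130.1 CPM with dTAG and 95.5, 98.4, 142 and 148 CPM with dTAG and Dox. Its groups overlapped, because clones G4 and H1 with Dox alone lay below C3 and H5 with dTAG. Within each clone dTAG was lower in both Dox states, and the change was -0.36 ± 0.09 (SE, limma adjusted p = 0.00731), which was -0.59 relative to the median of all genes. Zfp608 changed by -0.57 ± 0.09 (SE, limma adjusted p = 0.000581), which was -0.80 relative to the median of all genes. Zfp462, which supports pluripotency and heterochromatin, changed by -0.39 ± 0.09 (SE, limma adjusted p = 0.00501), which was -0.61 relative to the median of all genes. Zfp697 changed by -0.30 ± 0.11 (SE, limma adjusted p = 0.0414), which was -0.53 relative to the median of all genes.

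The change varied with gene span in members as in all genes. Of 40 members spanning under 10 kb, 24 were higher and 0 lower, against 41.4% and 1.30% of all genes of that span. Their median was 0.43 (0.40 for all such genes), whereas median-ratio scaling gave 12 higher and 4 lower. Of 48 members spanning 30 kb or more, 13 were higher and 7 lower, against 25.8% and 16.01% of all genes of that span. Their median was 0.05 (0.07 for all such genes), and with median-ratio scaling the direction turned, at 4 higher and 15 lower. Across members the Spearman correlation of change with span was -0.33, and across all genes it was -0.41. It was 0.04 with GGACT per kb across 264 members and 0.11 across 12280 genes. These are descriptions across genes, which are not replicates and share their libraries. Genes under 3 kb took 0.497% to 4.57% of reads in METTL3 libraries, highest in C3 with dTAG and Dox, and 0.522% to 2.46% elsewhere. Feeder markers summed to 1.97 to 3.79 CPM untreated and 3.44 to 6.17 CPM with dTAG in this line. With Dox they summed to 1.92 to 4.78 CPM, and with dTAG and Dox to 3.30 to 4.57 CPM, so those ranges overlapped. The part of either in the member counts was not tested. Without clone H5 the count called fell from 143 to 74.

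**Figure D1:**
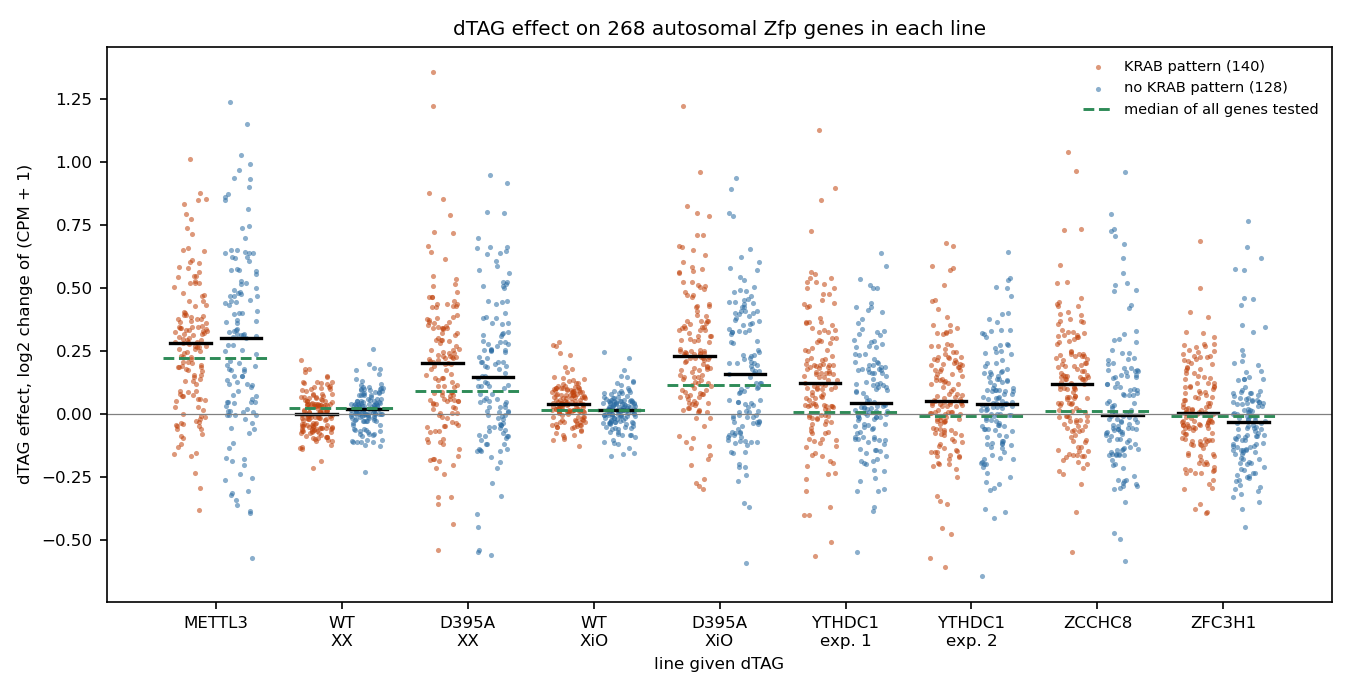
Change of log2(CPM + 1) with dTAG (y axis) of each of the 268 members in each line (x axis), with 140 KRAB-pattern members in orange-red at the left and the other 128 in blue at the right of each line. Black bars are class medians and green dashed bars the median of all genes tested, which lay at 0.22 in METTL3, where the excess of higher members was 133 to 10 on CPM and 43 to 36 with median-ratio scaling, while in ZCCHC8 the excess of 94 to 44 on CPM turned to 64 against 68 with that scaling.

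The catalytic site was addressed with the transgene lines, in which dTAG leaves GFP-METTL3, WT or D395A, as the METTL3 that remains. With WT, 0 members were called higher and 0 lower in XX cells, against 0.0% and 0.0% of 13364 genes, by limma and by edgeR with or without TMM. At an unadjusted p under 0.05 there were 44 genes in XX cells, of which 0 were members. In WT XiO cells 0 members were higher and 0 lower, against 0.0% and 0.0% of 13448 genes, by the same tools. There 18 genes had an unadjusted p under 0.05, of which 1 was a member. The wells of an experiment came from the same cells, so the replicate number pairs the libraries, and limma with the replicate number as a block also called 0 members in either WT line. With this block 623 genes in XX and 615 in XiO cells had an unadjusted p under 0.05, of which 7 and 11 were members.

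With D395A, 61 members were called higher (22.8%) and 8 lower (2.99%) in XX cells, against 13.4% and 4.27% of all genes. The median was 0.18 for members and 0.09 for all genes, and with median-ratio scaling the counts were 31 and 15. The replicate block gave 130 members called higher (48.5%) and 22 lower (8.21%), against 34.3% and 14.9% of all genes. In XiO cells 21 members were higher (7.84%) and 1 lower (0.373%), against 4.68% and 1.17% of all genes. The median was 0.20 for members and 0.12 for all genes, and median-ratio scaling gave 6 higher and 5 lower. The replicate block gave 141 higher (52.6%) and 20 lower (7.46%), against 37.7% and 12.4% of all genes. In XX cells 39 of 140 KRAB-pattern members and 22 of the 128 others were called higher on CPM. These counts were 13 and 18 with median-ratio scaling, 19 and 18 with TMM and 71 and 59 with the replicate block, and the difference between the classes was not tested.

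Zfp963, a KRAB member (chr8:69741638-69749962, minus strand), had the largest D395A change, with 3.32 and 2.29 CPM untreated and 3.71 and 2.71 CPM with Dox, against 8.42 and 9.96 CPM with dTAG and 9.35 and 8.99 CPM with dTAG and Dox in XX cells. In WT XX cells it had 4.08 and 3.85 CPM untreated and 3.70 and 4.54 CPM with Dox, against 3.43 and 5.06 CPM with dTAG and 3.63 and 5.90 CPM with dTAG and Dox. All D395A libraries with dTAG lay above all without it, whereas the WT values overlapped. The D395A change was 1.36 ± 0.17 (SE, limma adjusted p = 0.000539), which was 1.27 relative to the median of all genes in XX cells. In XiO cells it was 1.22 ± 0.13 (SE, limma adjusted p = 0.00184), which was 1.11 relative to the median of all genes, also without overlap. Zfp607 had 9.71 and 8.85 CPM untreated and 10.1 and 9.47 CPM with Dox, against 17.8 and 19.8 CPM with dTAG and 18.4 and 19.6 CPM with dTAG and Dox in D395A XX cells. The groups lay wide apart and the experiments close together, with a change of 0.92 ± 0.10 (SE, limma adjusted p = 0.00029), which was 0.83 relative to the median of all genes. In D395A XiO cells Zfp607 changed by 0.89 ± 0.12 (SE, limma adjusted p = 0.00396), which was 0.78 relative to the median of all genes. Zfp937, which shares sequence with Zfp442, changed by 1.22 ± 0.22 (SE, limma adjusted p = 0.00354), which was 1.13 relative to the median of all genes in XX cells, and Zfp629 by 0.95 ± 0.16 (SE, limma adjusted p = 0.00267), which was 0.86 relative to the median of all genes. In XiO cells Zfp202 changed by 0.94 ± 0.20 (SE, limma adjusted p = 0.0239), a call that did not hold with median-ratio scaling, and Zfp759 by 0.83 ± 0.18 (SE, limma adjusted p = 0.0258).

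Zfp219, listed here with the pluripotency network, had 66.2 and 66.1 CPM untreated and 65.4 and 63.9 CPM with Dox, against 40.1 and 45.0 CPM with dTAG and 44.5 and 49.5 CPM with dTAG and Dox in D395A XX cells. All 4 dTAG libraries were lower than the others, and the change was -0.54 ± 0.09 (SE, limma adjusted p = 0.0027), which was -0.63 relative to the median of all genes. Zfp219 overlaps Arhgef40 on the other strand, and reads were counted by strand. Zfp367 fell in both D395A lines, by -0.56 ± 0.11 (SE, limma adjusted p = 0.00488), which was -0.65 relative to the median of all genes in XX cells. In XiO cells its change was -0.59 ± 0.15 (SE, limma adjusted p = 0.0464), which was -0.71 relative to the median of all genes. Zfp423, a cofactor in BMP signalling, changed by -0.55 ± 0.11 (SE, limma adjusted p = 0.00576) and Zfp658 by -0.54 ± 0.15 (SE, limma adjusted p = 0.0271) in XX cells.

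The difference between D395A and WT was tested as an interaction. In XX cells 7 members were more positive in D395A (2.61%) and 1 more negative (0.373%), against 2.02% and 0.614% of all genes. With the replicate block these were 79 (29.5%) and 11 (4.10%), against 19.4% and 8.8% of all genes. The difference was 1.25 ± 0.24 (SE, limma adjusted p = 0.0233) for Zfp963 and 0.87 ± 0.16 (SE, limma adjusted p = 0.0185) for Zfp597. It was 0.79 ± 0.14 (SE, limma adjusted p = 0.0202) for Zfp607 and -0.60 ± 0.13 (SE, limma adjusted p = 0.0349) for Zfp219. In XiO cells 0 members were called more positive and 0 more negative, by limma and by edgeR with or without TMM, against 0.0297% and 0.0% of all genes. There, 37 members had an unadjusted p under 0.05. The replicate block gave 87 members more positive in D395A XiO cells (32.5%) and 11 more negative (4.10%), against 21.0% and 7.67% of all genes. Early differentiation markers summed to 109.0 to 176 CPM in WT XiO and to 15.0 to 32.2 CPM in D395A XiO libraries, and their part in this difference was not tested. Leaving out either D395A experiment gave 0 members called for the D395A effect in XX and XiO cells, and 0 for the difference in XX cells. Leaving out WT experiment 2 gave 5 members called for that difference in place of 8.

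METTL3 and D395A libraries share no controls, although clone H5 is the parent of the transgene lines. Of the 133 members higher after METTL3 loss, 51 were called higher in D395A XX cells, and 123 had a positive change there. The 51 are 38.3% of the METTL3 list, where 22.8% of all members were called higher in D395A XX. They are 83.6% of the D395A list, where 49.6% of all members were called higher in METTL3. The changes of 268 members correlated with r = 0.65 (0.60 over all genes). For D395A XiO the overlap was 18 members, 13.5% and 85.7% of the lists, with r = 0.69 (0.64 over all genes). D395A XiO called 7.84% of all members higher. Against the WT lines r was 0.18 (XX) and 0.21 (XiO). Called higher in METTL3 and both D395A lines were 14 members, among them Zfp963, Zfp607, Zfp748, Zfp202 and Zfp451, and Zfp367 was the single member called lower in all of them. With the replicate block in the D395A lines, the 133 members shared 99 with D395A XX and 107 with D395A XiO, and 90 members were higher and 3 lower in METTL3 and both D395A lines.

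**Figure D2:**
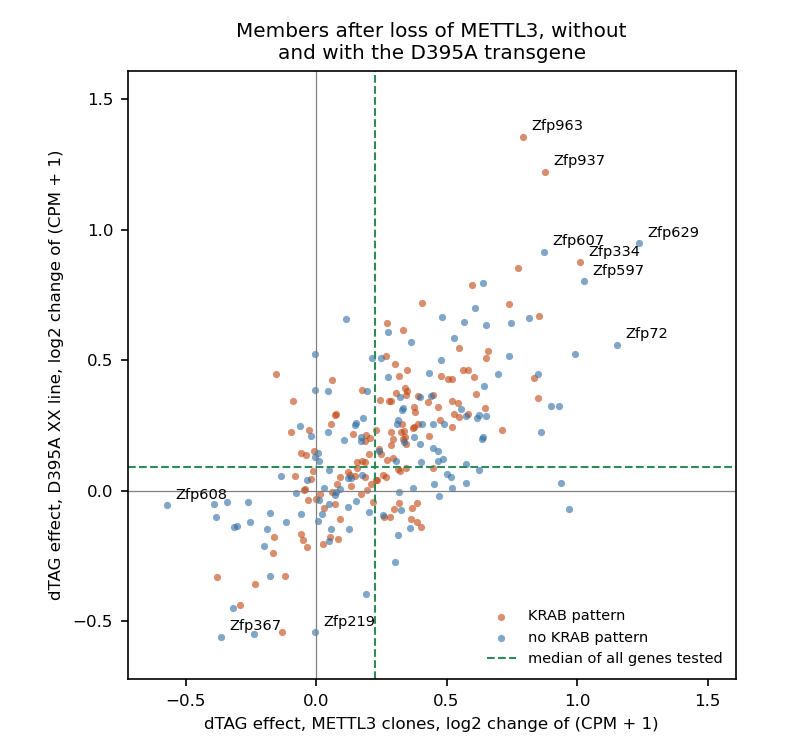
Change of log2(CPM + 1) with dTAG of each of the 268 members in the METTL3 clones (x axis) and in the D395A XX line (y axis), with KRAB-pattern members in orange-red and others in blue. Green dashed lines are the medians of all genes on CPM (0.22 and 0.09, removed by median-ratio scaling), and Zfp963 and Zfp629 stand to the upper right while Zfp367 is lower in both.

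Loss of YTHDC1 raised more zinc finger genes than it lowered. In experiment 1, 94 members were higher (35.1%) and 25 lower (9.33%), against 18.6% and 14.3% of 13857 genes. The median was 0.10 for members and 0.01 for all genes, and the counts with median-ratio scaling were 86 and 29. In experiment 2, 69 members were higher (25.7%) and 37 lower (13.8%), against 15.9% and 15.8% of 13722 genes. The same clones were used, and 56 members were higher in both experiments, 59.6% of the list of experiment 1 and 81.2% of that of experiment 2. Another 21 were lower in both. Leaving out clone Y9F in experiment 1 reduced the members called from 119 to 46, and leaving out Y12H to 72.

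Zfp748 on chromosome 13, of which a stretch is printed above, had 18.9 and 20.4 CPM untreated and 14.4 and 13.2 CPM with Dox, against 45.4 and 37.2 CPM with dTAG and 36.4 and 30.9 CPM with dTAG and Dox in experiment 1. All dTAG libraries lay above all others, and Y9F was higher than Y12H with dTAG. The change was 1.13 ± 0.07 (SE, limma adjusted p = 5.61e-09). In experiment 2 it had 23.3 and 25.4 CPM untreated and 24.9 and 23.1 CPM with Dox, against 46.0 and 35.5 CPM with dTAG and 36.5 and 38.8 CPM with dTAG and Dox. The groups were again apart, with a change of 0.67 ± 0.07 (SE, limma adjusted p = 7.58e-07). Zfp963 changed by 0.90 ± 0.10 (SE, limma adjusted p = 7.26e-06) and 0.68 ± 0.09 (SE, limma adjusted p = 1.28e-05) in experiments 1 and 2. Zfp712, the closest to Zfp748 among the printed stretches, changed by 0.85 ± 0.09 (SE, limma adjusted p = 4.19e-06) and 0.59 ± 0.09 (SE, limma adjusted p = 6.61e-05). Zfp84, a KRAB member on chromosome 7, changed by 0.73 ± 0.07 (SE, limma adjusted p = 1.5e-06) in experiment 1. Zfp804b changed by 0.64 ± 0.08 (SE, limma adjusted p = 3.57e-06) in experiment 2.

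Zfp936, a KRAB member on chromosome 7 (chr7:43177587-43192109, plus strand), fell in both experiments. In experiment 1 it had 159 and 203 CPM untreated and 167 and 183 CPM with Dox, against 115 and 134 CPM with dTAG and 113 and 119 CPM with dTAG and Dox, and all dTAG libraries lay below all others. The change was -0.56 ± 0.04 (SE, limma adjusted p = 1.36e-07), and in experiment 2 it was -0.57 ± 0.04 (SE, limma adjusted p = 9.93e-09). Zfp57 had 409 and 412 CPM untreated and 387 and 352 CPM with Dox, against 313 and 297 CPM with dTAG and 243 and 247 CPM with dTAG and Dox in experiment 1. Its dTAG libraries were all lower, with a change of -0.51 ± 0.05 (SE, limma adjusted p = 1.31e-06). In experiment 2 Zfp57 had 223 and 298 CPM untreated and 203 and 303 CPM with Dox, against 165 and 241 CPM with dTAG and 153 and 191 CPM with dTAG and Dox. Y12H was higher than Y9F in every treatment, groups overlapped, and within each clone dTAG was lower, with a change of -0.45 ± 0.05 (SE, limma adjusted p = 5.18e-07). Zfp523, a relative of the promoter-binding activator Zfp143, changed by -0.55 ± 0.10 (SE, limma adjusted p = 0.000663) and -0.64 ± 0.10 (SE, limma adjusted p = 3.99e-05). Zfp931 changed by -0.40 ± 0.06 (SE, limma adjusted p = 7.16e-05) in experiment 1. In experiment 2 Zfp458 changed by -0.61 ± 0.10 (SE, limma adjusted p = 0.000119) and Zfp738 by -0.47 ± 0.08 (SE, limma adjusted p = 7.47e-05).

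**Figure D3:**
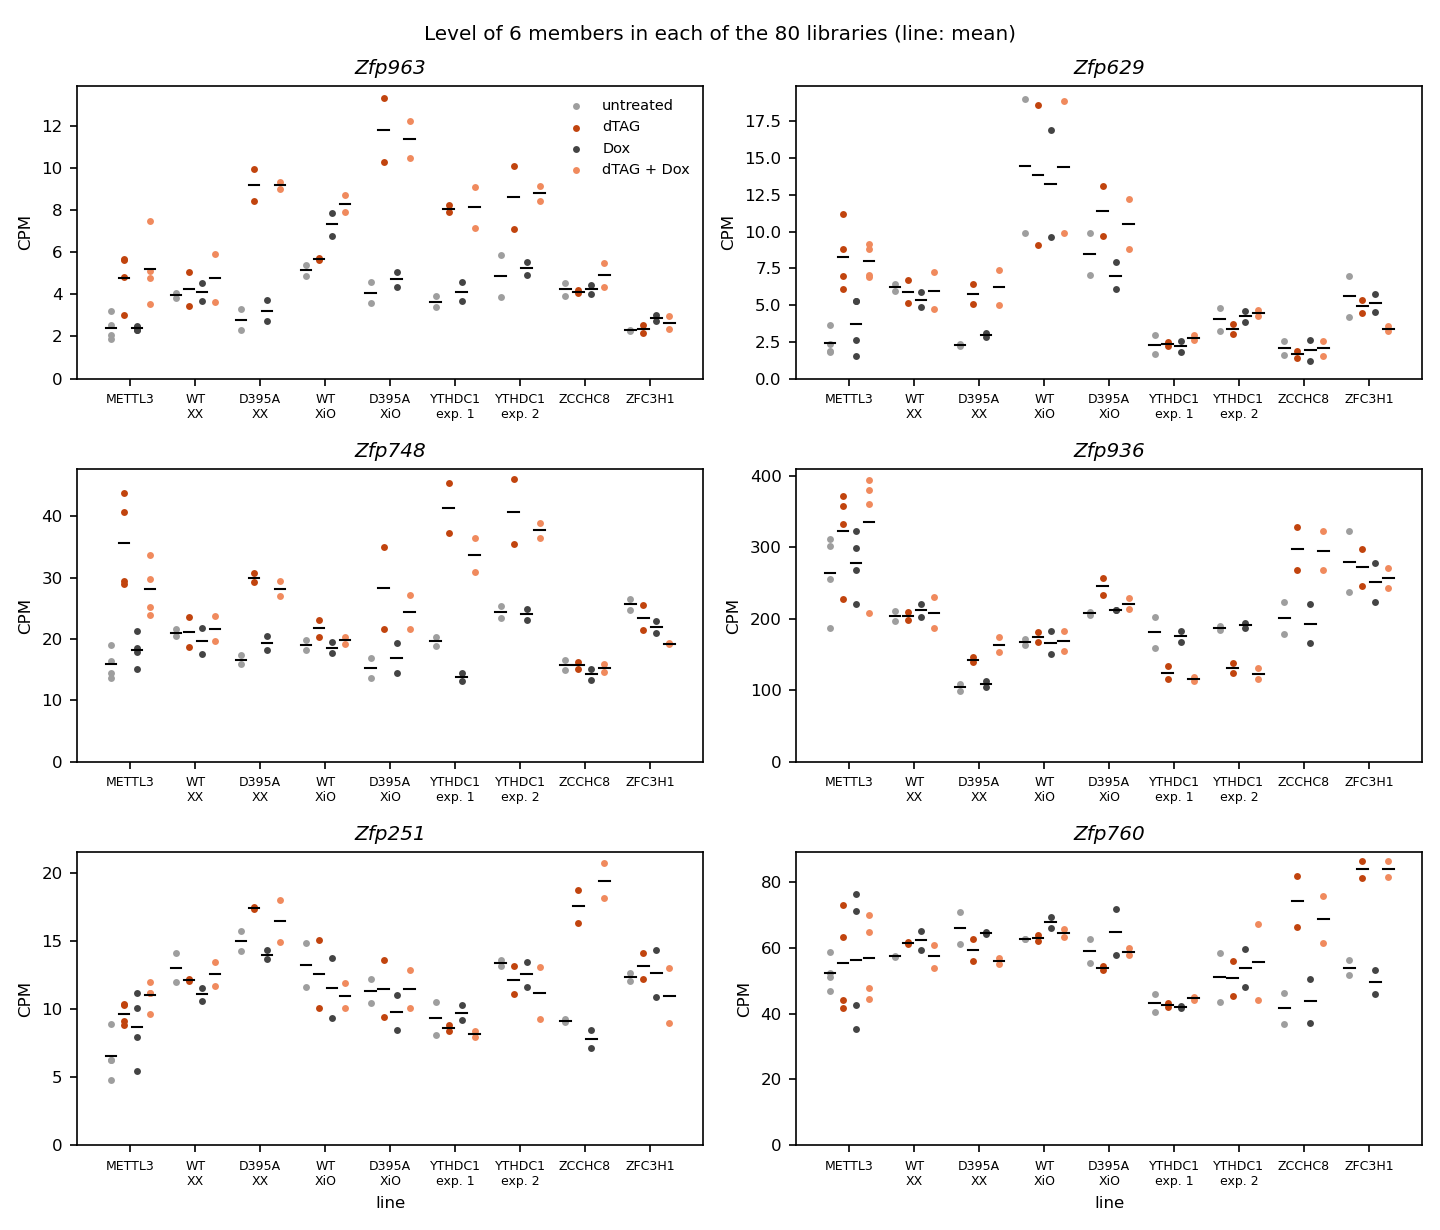
Level in CPM (y axis, from 0) of Zfp963, Zfp629, Zfp748, Zfp936, Zfp251 and Zfp760 in each of the 80 libraries, by line and treatment (x axis), with points for libraries and black bars for means. Zfp936 is lower with dTAG in YTHDC1 lines and higher in the ZCCHC8 line, and Zfp760 is higher with dTAG in the ZCCHC8 and ZFC3H1 lines.

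Loss of ZCCHC8 moved zinc finger genes in both directions. There were 94 members higher (35.1%) and 44 lower (16.4%), against 29.4% and 24.1% of all genes. The median was 0.07 for members and 0.01 for all genes, whereas with median-ratio scaling the members' median was -0.00, with 64 higher and 68 lower, so the excess of higher calls did not hold on that scale. TMM in edgeR gave 82 higher and 47 lower. Shares of all genes called with either scaling are not given. Among KRAB-pattern members 60 of 140 were higher and 14 lower, and among the others 34 of 128 were higher and 30 lower. With median-ratio scaling these were 40 and 22, and 24 and 46. Among genes with a mean of 20 CPM or more, 61 of 160 members were higher and 35 lower, against 1268 and 2677 of all 6993 such genes, and with median-ratio scaling the members turned to 38 higher and 53 lower. Two-cell markers were 31.6 to 66.4 CPM with dTAG in this line, and their part in these counts was not tested. Leaving out Z4F gave 87 calls in place of 138, and leaving out Z12H gave 89.

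Zfp251, a KRAB member (chr15:76852140-76871435, minus strand), had 9.03 and 9.26 CPM untreated and 8.47 and 7.16 CPM with Dox, against 16.3 and 18.8 CPM with dTAG and 18.2 and 20.7 CPM with dTAG and Dox. The dTAG libraries of both clones lay above all others. The change was 1.04 ± 0.09 (SE, limma adjusted p = 5.62e-08). Zfp672, with 13 fingers (chr11:58315113-58323365, minus strand), had 24.4 and 25.9 CPM untreated and 22.4 and 25.2 CPM with Dox, against 45.2 and 50.0 CPM with dTAG and 54.9 and 44.8 CPM with dTAG and Dox. These groups did not overlap either, and the change was 0.96 ± 0.08 (SE, limma adjusted p = 3.19e-08). Zfp560 changed by 0.96 ± 0.06 (SE, limma adjusted p = 3.48e-09) and Zfp202 by 0.79 ± 0.11 (SE, limma adjusted p = 1.22e-05). Zfp936 had 179 and 223 CPM untreated and 166 and 219.9 CPM with Dox, against 268 and 328 CPM with dTAG and 268 and 323 CPM with dTAG and Dox. Z12H was higher than Z4F in each treatment, and all dTAG libraries lay above the others, with a change of 0.59 ± 0.04 (SE, limma adjusted p = 1.19e-08). Zfp652 had 69.2 and 60.3 CPM untreated and 73.8 and 52.5 CPM with Dox, against 47.5 and 38.8 CPM with dTAG and 48.9 and 34.4 CPM with dTAG and Dox. Each dTAG value was lower than every value without dTAG, and the change was -0.58 ± 0.05 (SE, limma adjusted p = 2.05e-07). Zfp759 changed by -0.55 ± 0.08 (SE, limma adjusted p = 4.63e-05). Zfp827, which recruits the NuRD complex, changed by -0.50 ± 0.04 (SE, limma adjusted p = 4.23e-08), and Zfp236 by -0.47 ± 0.04 (SE, limma adjusted p = 1.03e-07).

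Loss of ZFC3H1 gave few calls among members and among all genes, and the share called lower was larger among members. There were 18 higher (6.72%) and 18 lower (6.72%), against 6.45% and 3.46% of 13544 genes, and the counts were the same with median-ratio scaling. The medians were -0.02 for members and -0.01 for all genes. Zfp760, a KRAB member on chromosome 17 (chr17:21707740-21725636, plus strand), had 56.3 and 51.7 CPM untreated and 53.3 and 46.0 CPM with Dox, against 86.5 and 81.4 CPM with dTAG and 81.6 and 86.6 CPM with dTAG and Dox. Both clones gave like values and the groups lay apart, with a change of 0.69 ± 0.06 (SE, limma adjusted p = 0.000206). Zfp207 had 442 and 571 CPM untreated and 476 and 598 CPM with Dox, against 641 and 967 CPM with dTAG and 699 and 1054 CPM with dTAG and Dox. Clone 11A was higher than 8H throughout, and all dTAG libraries lay above the others, with a change of 0.67 ± 0.06 (SE, limma adjusted p = 0.000209). Zfp397 changed by 0.77 ± 0.09 (SE, limma adjusted p = 0.000733) and Zfp329 by 0.62 ± 0.09 (SE, limma adjusted p = 0.00217). Zfp608 changed by -0.45 ± 0.08 (SE, limma adjusted p = 0.00588) and Zfp759 by -0.39 ± 0.09 (SE, limma adjusted p = 0.0221). Zfp90 changed by -0.39 ± 0.10 (SE, limma adjusted p = 0.0345) and Zfp955b by -0.37 ± 0.08 (SE, limma adjusted p = 0.0163).

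Between the exosome adaptors, whose lines share no libraries, 12 members were called higher in both: Zfp329, Zfp385b, Zfp397, Zfp668, Zfp672, Zfp760, Zfp866, Zfp931, Zfp932, Zfp938, Zfp942 and Zfp961. They are 12.8% of the ZCCHC8 list and 66.7% of the ZFC3H1 list. Among all members, 6.72% were called higher in ZFC3H1 and 35.1% in ZCCHC8. Zfp760 in the ZCCHC8 line had 36.9 and 46.4 CPM untreated and 37.1 and 50.5 CPM with Dox, against 66.4 and 82.1 CPM with dTAG and 61.5 and 75.9 CPM with dTAG and Dox, and changed by 0.73 ± 0.05 (SE, limma adjusted p = 4.19e-09) there. Zfp672 changed by 0.46 ± 0.08 (SE, limma adjusted p = 0.00575) in the ZFC3H1 line. Lower in both were Zfp236, Zfp318, Zfp518a, Zfp652, Zfp759 and Zfp90. Another 6 were higher in ZCCHC8 and lower in ZFC3H1, and 1 was the reverse. Among all members 6.72% were called lower in ZFC3H1 and 16.4% in ZCCHC8. The changes correlated with r = 0.39 over 268 members and 0.38 over all genes.

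The ZCCHC8 and YTHDC1 effects of experiment 1 differed for many members. The difference, ZCCHC8 minus YTHDC1, was positive for 61 members (22.8%) and negative for 72 (26.9%), against 23.4% and 20.5% of all genes. Median-ratio scaling gave 51 and 94. Without clone Y9F the members called fell from 133 to 88. The difference for Zfp936 was 1.15 ± 0.06 (SE, limma adjusted p = 7.8e-10), with 0.59 in ZCCHC8 and -0.56 in YTHDC1. For Zfp251 it was 1.20 ± 0.12 (SE, limma adjusted p = 1.07e-06), and the YTHDC1 change was -0.16 ± 0.09 (SE, limma adjusted p = 0.169). For Zfp672 it was 1.06 ± 0.11 (SE, limma adjusted p = 1.04e-06). For Zfp748 it was -1.09 ± 0.09 (SE, limma adjusted p = 1.81e-07), and the ZCCHC8 change was 0.04 ± 0.07. For Zfp937 it was -0.91 ± 0.13 (SE, limma adjusted p = 3.19e-05), with -0.39 in ZCCHC8 and 0.52 in YTHDC1. For Zfp759 it was -0.88 ± 0.12 (SE, limma adjusted p = 2.03e-05), with -0.55 and 0.33. Across 268 members the 2 effects correlated with r = -0.13 (0.07 over all genes), and 25 members were higher in both, 26.6% of each list. Each of these effects called 35.1% of all members higher.

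**Figure D4:**
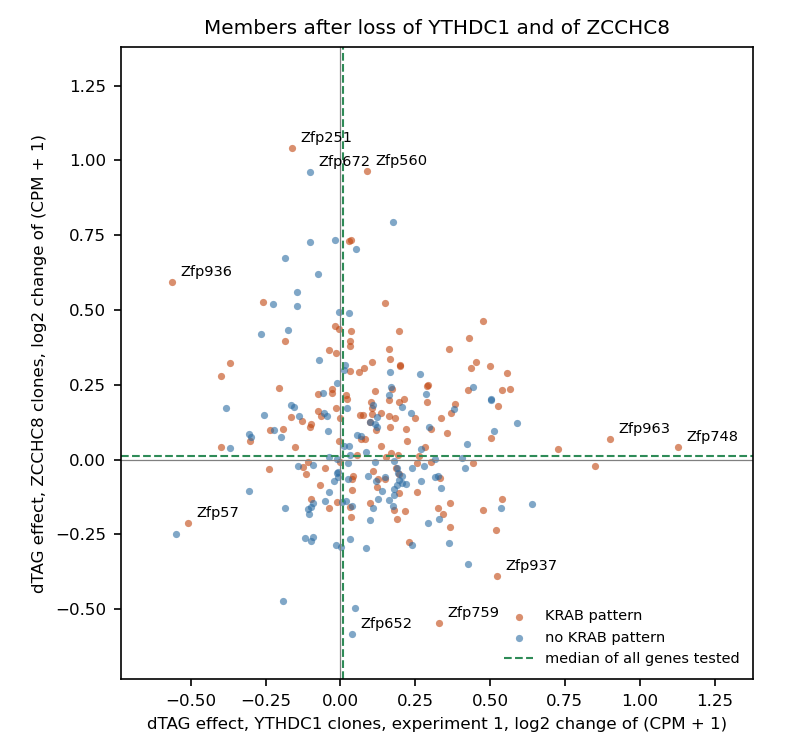
Change of log2(CPM + 1) with dTAG of each of the 268 members in YTHDC1 clones, experiment 1 (x axis), and in ZCCHC8 clones (y axis), with KRAB-pattern members in orange-red and others in blue. Zfp251 lies at the top at 1.04 in ZCCHC8, Zfp936 lies to the upper left, and Zfp748 lies at the right near 0 in ZCCHC8.

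METTL3 and YTHDC1, writer and reader of the same mark, shared higher members. The changes of METTL3 and of YTHDC1 experiment 1 correlated with r = 0.30 over members and 0.02 over all genes, and this difference was not tested. There were 63 members higher in both, 47.4% of the METTL3 list and 67.0% of the YTHDC1 list, and 10 were higher in METTL3 and lower in YTHDC1. Among all members, 35.1% were called higher in YTHDC1 experiment 1 and 49.6% in METTL3, and 9.33% were called lower in YTHDC1 experiment 1. With experiment 2 r was 0.17 over members and -0.01 over all genes. There 45 members were higher in both, 33.8% of the METTL3 list and 65.2% of the YTHDC1 list. Another 17 were higher in METTL3 and lower in YTHDC1. Experiment 2 called 25.7% of all members higher and 13.8% lower. Between METTL3 and ZCCHC8 r was -0.04, 45 members were higher in both, and 22 were higher in METTL3 and lower in ZCCHC8. The 45 are 33.8% of the METTL3 list, close to the 35.1% of all members called higher in ZCCHC8. They are 47.9% of the ZCCHC8 list, close to the 49.6% of all members called higher in METTL3. Lower in ZCCHC8 were 16.4% of all members. Overlaps over all genes were not counted. Called higher in METTL3, D395A XX and both YTHDC1 experiments were 21 members, and 0 were lower. Among all members only 3.73% were lower in METTL3 and 2.99% in D395A XX, and both YTHDC1 experiments used the same clones. The counts to be expected from the shares in each line were not computed. The 21 were Zfp39, Zfp51, Zfp52, Zfp62, Zfp84, Zfp109, Zfp131, Zfp263, Zfp354a, Zfp445, Zfp451, Zfp518a, Zfp563, Zfp597, Zfp607, Zfp719, Zfp748, Zfp830, Zfp869, Zfp937 and Zfp963. Of these, 7 were also higher in ZCCHC8: Zfp51, Zfp354a, Zfp563, Zfp607, Zfp719, Zfp830 and Zfp869. The METTL3 and D395A calls in these lists are those on CPM. If the D395A XX calls were those with the replicate block, the list of 21 held 34 and that of 7 held 11. In no dTAG effect were 30 members called, or 19 with that block in the transgene lines.

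The 17 members of the chromosome 13 run differed among themselves. Of all genes, 35.1% were called higher in METTL3, 13.4% and 4.68% in D395A XX and XiO, and 18.6% and 15.9% in the YTHDC1 experiments. ZCCHC8 had 29.4% higher and ZFC3H1 6.45%. Called lower were 8.69% in METTL3, 4.27% and 1.17% in D395A XX and XiO, and 14.3% and 15.8% in the YTHDC1 experiments. ZCCHC8 had 24.1% lower and ZFC3H1 3.46%. After METTL3 loss 12 of the 17 were higher and 0 lower, with a median of 0.52, whereas median-ratio scaling gave 6 higher and 1 lower. In D395A 6 of them were higher and 0 lower in XX cells (3 and 1 with median-ratio scaling), and 5 were higher and 0 lower in XiO cells (1 and 0). With the replicate block these were 11 and 1 in XX and 13 and 0 in XiO cells, against 34.3% and 37.7% of all genes higher. YTHDC1 loss raised 10 and lowered 1 in experiment 1, and raised 4 and lowered 2 in experiment 2. ZCCHC8 loss raised 4 and lowered 2 (3 and 3 with median-ratio scaling), and ZFC3H1 loss raised 0 and lowered 2. Zfp748 changed by 0.85 ± 0.12 in METTL3 and 0.67 ± 0.11 in D395A XX. Zfp712 changed by 0.13 ± 0.11 (SE, limma adjusted p = 0.337) in METTL3, while both YTHDC1 experiments called it higher. Zfp458 changed by 0.45 ± 0.11 in METTL3 and by -0.40 ± 0.08 in YTHDC1 experiment 1. Zfp759 changed by 0.83 ± 0.12 in METTL3, and was lower in ZCCHC8 and ZFC3H1. Zfp456 changed by 0.74 ± 0.13 in METTL3, 0.72 ± 0.17 in D395A XX, 0.43 ± 0.10 in YTHDC1 experiment 1 and 0.41 ± 0.10 in ZCCHC8.

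**Figure D5:**
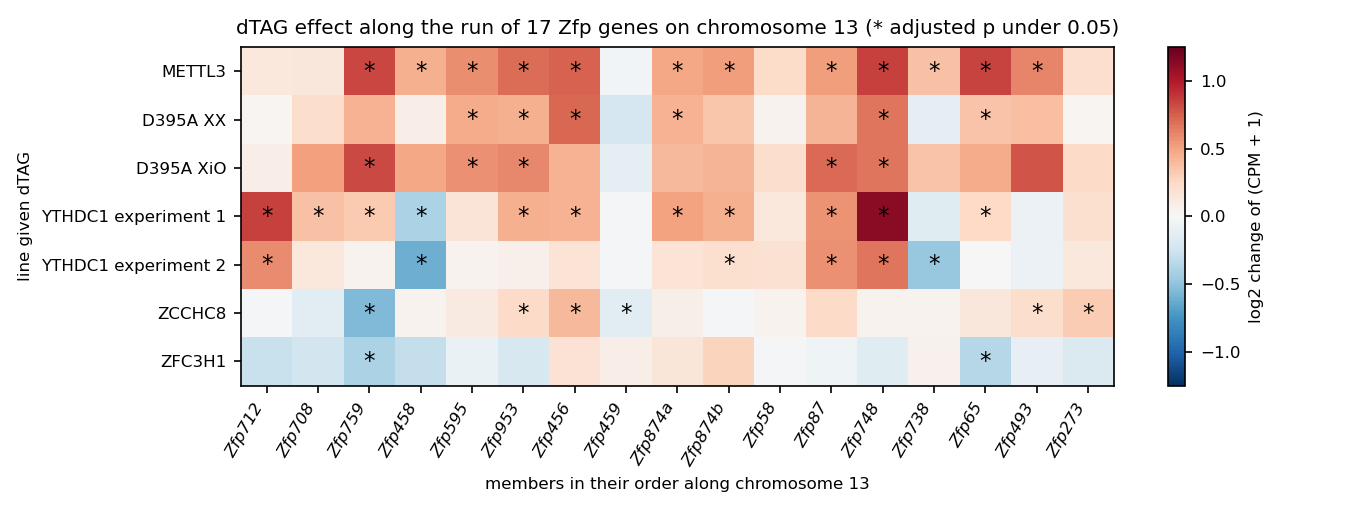
Change of log2(CPM + 1) with dTAG, as colour, of the 17 members of the chromosome 13 run in map order (columns) in 7 lines (rows), with asterisks at adjusted p under 0.05. METTL3 has 12 higher and 0 lower members on CPM (6 and 1 with median-ratio scaling), YTHDC1 experiment 1 has 10 higher and 1 lower, and ZFC3H1 has 0 higher and 2 lower.

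Other runs differed in turn, and their counts stand beside the same shares of all genes. On chromosome 6, positions 47835660 to 48086593, 7 members were all higher after METTL3 loss (2 with median-ratio scaling). Of these, 6 had a matching protein, and 0 of them encoded a KRAB pattern. In D395A XX 4 were higher (3 with median-ratio scaling and 6 with the replicate block). Zfp282 changed by 0.53 ± 0.11 and 0.59 ± 0.11 in these lines, and Zfp746 by 0.36 ± 0.09 and 0.57 ± 0.15. With ZCCHC8 loss 0 of the 7 were higher and 2 lower. On chromosome 17, positions 21008940 to 23599487, 18 members had 10 higher and 2 lower with ZCCHC8 loss (6 and 2 with median-ratio scaling). With METTL3 loss 7 were higher and 0 lower (2 and 0), against 35.1% and 8.69% of all genes. On chromosome 7, positions 29768551 to 30169727, 10 of 13 members were higher and 0 lower with METTL3 loss, but 1 and 1 with median-ratio scaling. With ZCCHC8 loss 3 were higher and 1 lower there (2 and 2).

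The members with a known role were taken as 5 lists with 25 genes, of which 22 are members. Among all genes, 35.1% were called higher and 8.69% lower in METTL3, and 29.4% and 24.1% in ZCCHC8. Of the imprint regulators, Zfp57 was lower in both YTHDC1 experiments, as above, and in ZCCHC8 (-0.21 ± 0.05 (SE, limma adjusted p = 0.00164)), and its METTL3 change was -0.24 ± 0.10 (SE, limma adjusted p = 0.0803). On CPM Zfp445 rose in METTL3 (0.28 ± 0.08 (SE, limma adjusted p = 0.0176)) and in D395A XX (0.61 ± 0.14 (SE, limma adjusted p = 0.0131)). It also rose in both YTHDC1 experiments (0.41 ± 0.06 and 0.34 ± 0.05), and its ZCCHC8 change was -0.03 ± 0.06. Of these 2 imprint regulators METTL3 had 1 higher and 0 lower on CPM. With median-ratio scaling this turned to 0 higher and 1 lower, so Zfp445 was not called higher in METTL3 on that scale. Among 7 pluripotency genes, 3 were higher and 1 lower in METTL3, where median-ratio scaling turned this to 1 and 2, and 3 were higher and 1 lower in ZCCHC8 (2 and 1). Zfp281 changed by 0.45 ± 0.06 (SE, limma adjusted p = 0.000299) in METTL3 and by -0.12 ± 0.04 (SE, limma adjusted p = 0.0217) in ZCCHC8. Zfp322a changed by 0.58 ± 0.09 in METTL3 and Zfp143 by 0.33 ± 0.04 in ZCCHC8. Zfp217 changed by 0.36 ± 0.12 in METTL3, 0.25 ± 0.05 in ZCCHC8 and -0.25 ± 0.06 in ZFC3H1.

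Among 7 partners of repressor complexes, ZCCHC8 loss lowered 5 and raised 1, and METTL3 loss raised 4 and lowered 0. With median-ratio scaling these were 6 lower and 1 higher, and 2 and 2. Zfp518a changed by 0.75 ± 0.09 (SE, limma adjusted p = 9.34e-05) in METTL3 and -0.15 ± 0.05 (SE, limma adjusted p = 0.0264) in ZCCHC8. Zfp518b changed by 0.64 ± 0.09 and -0.30 ± 0.05, and Zfp592 by 0.17 ± 0.10 and -0.29 ± 0.06, in the same lines. Zfp687 changed by 0.64 ± 0.20 in METTL3 and Zfp516 by 0.22 ± 0.05 in ZCCHC8. Zfp644, a partner of the G9a and GLP methyltransferases, was called higher in METTL3 at 0.17 ± 0.07, but its sign turned to -0.095 with median-ratio scaling and -0.033 with TMM. Of 4 KRAB genes with known retroelement or placental targets, 2 rose in each of METTL3, ZCCHC8 and ZFC3H1, although with median-ratio scaling METTL3 had 0 higher and 1 lower, and ZCCHC8 2 and 2. In METTL3 1 of these was Zfp568, a repressor of a placental promoter of Igf2, at 0.23 ± 0.09 on CPM and -0.036 with median-ratio scaling. Zfp932 changed by 0.47 ± 0.09 in METTL3, 0.52 ± 0.06 in ZCCHC8 and 0.33 ± 0.06 in ZFC3H1. Zfp961 changed by 0.38 ± 0.05 in ZCCHC8 and 0.31 ± 0.05 in ZFC3H1, and Zfp819 by -0.13 ± 0.06 in ZCCHC8, which was not called. Of the genes that bind RNA, Zfp106 changed by 0.49 ± 0.06 in METTL3 and -0.14 ± 0.04 in ZCCHC8, and Zfp326 by -0.27 ± 0.06 in ZCCHC8. In METTL3 these 2 genes gave 1 higher and 0 lower on CPM. With median-ratio scaling they gave 0 higher and 1 lower, so Zfp106 was not called higher on that scale.

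The factors that KRAB zinc finger proteins recruit were counted from a list of 14, of which 13 were tested. METTL3 loss raised 3 (Setdb1, Cbx5 and Chd4) and lowered Atf7ip, the partner of SETDB1, against 35.1% and 8.69% of all genes. Setdb1 changed by 0.42 ± 0.09 in METTL3, which was 0.20 relative to the median of all genes, and by 0.47 ± 0.05 in D395A XX. The relative changes of Cbx5, an HP1 protein, and Chd4 were 0.59 and 0.52 in METTL3. Atf7ip changed by -0.58 ± 0.06 and -0.62 ± 0.12 in these lines. D395A XX had 1 higher and 3 lower, and D395A XiO had 1 higher and 0 lower, against 13.4% and 4.27%, and 4.68% and 1.17%, of all genes. With the replicate block these were 2 and 6, and 3 and 6. Setdb1 was the gene called higher in both YTHDC1 experiments too, at 0.25 ± 0.04 and 0.20 ± 0.04, with 5 and 3 others lower, against 14.3% and 15.8% of all genes. Among the lower was Uhrf1, which recruits the DNA methyltransferase DNMT1, at -0.45 ± 0.06 and -0.38 ± 0.05. ZCCHC8 loss raised 1 and lowered 4, among them Trim28 at -0.18 ± 0.04, against 29.4% and 24.1% of all genes. ZFC3H1 loss lowered Cbx5 only, at -0.35 ± 0.06. Neither WT line had a call. The difference of D395A and WT in XX cells was called for Setdb1, at 0.45 ± 0.08, and with the replicate block for 1 more positive and 5 more negative.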

How the data were processed

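ChrRNA-seq of 80 libraries in 36 groups was analysed from 6 deposited tables of CPM over 22556 genes. The authors took out rRNA reads (bowtie2), used STAR with an N-masked mm10 genome, kept unique alignments, counted reads by strand with featureCounts over whole transcript spans, and scaled them to library size with edgeR, so that the deposited CPM include introns and carry no length correction. In every library 100% of values were whole multiples of a single step (tolerance 0.1 of a step), which gave the reads, and 1 read was worth 0.0291 to 0.117 CPM. Another 12 columns, which could not be assigned to a sample, were not used. Over 56 pairs of replicates, 0 were identical. Intervals were not computed for single libraries, and depth covers counting error only, since reads carried no molecular identifiers.

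Values of log2(CPM + 1) were tested in limma 3.58.1 (R 4.3.3, lmFit and eBayes with a trend) for genes whose mean in the table was 1 CPM or more, with all libraries of a table in a fit. The degron fits held clone as a block, because the cell line labels pair the samples. Residuals of a clone correlated between treatments at 0.60 (G4), 0.44 (H1), 0.40 (C3) and 0.29 (H5), and at 0.37 to 0.87 in the other degron lines. Replicates of the transgene lines are experiments on the same clone. The methods say that all wells of a replicate came from a single batch of cells, and residuals of an experiment correlated at 0.57 to 0.88. The fit without a block was kept, and the count with the replicate number as a block is given where it differs. Column names of both YTHDC1 tables are alike, and experiment 2 is the table whose name marks a repeat. P-values are two-sided. The fits were tested on simulated data. Alternatives were edgeR 4.0.16 quasi-likelihood tests on recovered reads with and without TMM (the former added after seeing the data), median-ratio scaling, other pseudocounts, filters and blocks, each Dox state alone, and each replicate left out.

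The members, gene lists and tests were chosen with earlier results of these data known. Genes were named where they had the 4 largest rises or falls among the calls of a dTAG effect with the same sign in every clone or experiment. Others had the 3 largest among the calls of a difference, without a condition on sign, or the highest level per kb. The rest lay next to the mean of 5 CPM or stood on a list by role. Members of the runs and of shared lists, Zfp282, Zfp456 and Zfp746 among them, were named after their values were seen. Proteins, fingers (C..C, then H at the spacing of C2H2 fingers) and KRAB patterns were read from the longest coding sequence in GENCODE vM21, promoters from RefSeq, both on GRCm38.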

Additional observations from a re-analysis of the deposited data

Results flagged for a closer look

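In 36 tests, of 8 members and of the share of reads in all members in each METTL3 group of 4, no library lay apart from the others. The dTAG effect differed between lines by a test of the difference itself for 133 members (ZCCHC8 minus YTHDC1) and 8 (D395A minus WT, XX). The 10 named here were the largest in each direction among those called. The same sign in every clone or experiment was not required for them. The values are log2 differences of the effect, ZCCHC8 minus YTHDC1 in experiment 1, and the first 3 were positive. Zfp251 had 1.20, with the ZCCHC8 change at 1.04 and the YTHDC1 change at -0.16. Zfp936 had 1.15, with a rise in ZCCHC8 and a fall in YTHDC1. Zfp672 had 1.06. The others were negative. Zfp748 had -1.09, Zfp937 had -0.91 and Zfp759 had -0.88. D395A minus WT in XX cells gave 1.25 for Zfp963, 0.87 for Zfp597, 0.79 for Zfp607 and -0.60 for Zfp219. Two-cell markers summed to 31.6 to 66.4 CPM with dTAG in the ZCCHC8 line, and their part in the ZCCHC8 differences was not tested.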

How the results depend on the processing

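Counts of members called, higher and lower together, moved with several choices, and the cause was not tested. Apart from the replicate block, shares of all genes called in these fits are not given. A loss of calls among members therefore cannot be told from a loss of calls among all genes. In METTL3 (143) median-ratio scaling gave 79, edgeR with TMM 79 and no clone block 94, and leaving out each clone gave 74 to 120. D395A XiO (22) gave 11 with median-ratio scaling, 11 with TMM and 10 with only its own libraries. With Dox alone the counts were 37 in METTL3, 11 in D395A XX, 0 in D395A XiO, 69 and 47 in YTHDC1 experiments 1 and 2, 90 in ZCCHC8, 8 in ZFC3H1, 80 for ZCCHC8 minus YTHDC1 and 0 for D395A minus WT in XX cells. Without Dox they were 89 in METTL3, 26 in D395A XX, 2 in D395A XiO, 61 in YTHDC1 experiment 2, 81 in ZCCHC8, 9 in ZFC3H1, 80 for ZCCHC8 minus YTHDC1 and 0 for D395A minus WT in XX cells. Without the clone block they were 9 in YTHDC1 experiment 2, 85 in ZCCHC8, 0 in ZFC3H1 and 79 for ZCCHC8 minus YTHDC1. Without the filter on low values ZFC3H1 (36) gave 23. Leaving out a clone gave 46 to 72 in YTHDC1 experiment 1, 87 to 89 in ZCCHC8 and 88 to 117 for ZCCHC8 minus YTHDC1, and leaving out an experiment gave 0 to 0 in either D395A line and 0 to 10 for D395A minus WT in XX cells. A lone sample was then assumed to vary like the other groups. It was not possible in YTHDC1 experiment 2 and ZFC3H1, where no residual degrees of freedom were left. In the transgene lines the fit with the replicate block called 152 members in D395A XX (130 higher, 22 lower), 161 in D395A XiO (141 and 20), 90 for D395A minus WT in XX cells and 98 for the same in XiO cells. Of single genes, Zfp568 in METTL3 turned to -0.036 with median-ratio scaling, and Zfp644 to -0.095 with it and -0.033 with TMM. Of 124 gene values, 122 kept their direction and call in edgeR without TMM, 115 with TMM and 112 with median-ratio scaling. Fewer kept them in other fits, with 74 in the libraries with Dox, 87 in those without Dox and 111 without the filter on low values. In the degron lines without the clone block 64 kept them and 40 were weaker. Most of these values were chosen as the largest calls of the same data. A pseudocount of 0.25 in place of 1 changed 0 of 124. Depth limits members near 5 CPM most, where the count of reads is lowest.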
